A study of Mus musculus with 6 samples.

Results

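The genes described here are 10 genes of cartilage, 3 transcription factor genes and 7 genes of the matrix, followed through histone marks in 6 mouse tissue sections. They are Sox9, Sox5 and Sox6, which encode the regulators SOX9, SOX5 and SOX6, and Acan, Hapln1, Comp, Matn1, Matn3, Cilp and Chad, which encode the matrix proteins ACAN, HAPLN1, COMP, MATN1, MATN3, CILP and CHAD. They were taken by symbol out of the 19378 genes that any of the 6 tables lists. The arthritis paw listed 5 of the 10, the control paw all 10 and the brain 7, and embryo H3K27me3, H3K27ac and H3K4me3 listed 10, 10 and 9. Sox9, Sox5, Sox6, Hapln1 and Cilp were the 5 listed in every table. Matn3 in embryo H3K4me3, Acan, Matn1 and Matn3 in the brain, and Acan, Comp, Matn1, Matn3 and Chad in the arthritis paw were not analysed here.

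The arthritis paw came from an adult mouse with collagen-induced arthritis, a model in which immunisation against cartilage collagen inflames the joints, and the control paw from an adult control mouse, both labelled with day 42. Both were decalcified, paraffin-embedded sections of 4 µm at the ankle bone talus, profiled for H3K27ac. The adult brain (20 µm, H3K4me3) and the whole embryos at E11.5 (16 µm, for H3K27me3, H3K27ac and H3K4me3 in a section each) were labelled wild type and sectioned frozen. Neither strain nor sex is given in the sources used here. With 1 section per group, no spread between animals could be measured, so no difference below was tested, and every interval covers counting error only.

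Cartilage cells, the chondrocytes, arise under the control of SOX9, with SOX5 and SOX6 as its partners on the enhancers of matrix genes. The matrix they lay down is a network of type II collagen filled with ACAN, a large proteoglycan that HAPLN1, the link protein, fastens to hyaluronan. COMP and the matrilins MATN1 and MATN3 tie collagen fibrils to each other and to proteoglycan, CHAD binds collagen and cell surface integrins, and CILP is a protein of the middle layers of articular cartilage. H3K27ac marks active promoters and enhancers, H3K4me3 active promoters, and H3K27me3 genes kept silent by Polycomb complexes.

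Of the 10 genes, 8 had a promoter window in RefSeq (build GRCm38.p6, 300 bases each). Sox9 and Comp were not among them, and this build is not the mm9 named in the processing notes, so the windows show sequence and no signal was placed on them. The windows of Acan, Chad, Cilp and Hapln1 are printed because Acan had the most CpG of these genes and the other 3 stood out in the ratios between marks and tissues described below. They run 5′ to 3′ on the gene's strand, and capitals mark each CG dinucleotide.
Acan promoter, chr7:79052976-79053275, plus strand: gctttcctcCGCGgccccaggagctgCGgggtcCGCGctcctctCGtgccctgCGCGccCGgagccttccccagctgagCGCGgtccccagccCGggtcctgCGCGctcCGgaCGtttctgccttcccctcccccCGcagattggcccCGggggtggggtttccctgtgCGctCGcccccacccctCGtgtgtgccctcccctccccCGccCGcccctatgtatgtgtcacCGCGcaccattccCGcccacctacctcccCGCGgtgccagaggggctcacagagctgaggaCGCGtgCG
Chad promoter, chr11:94564797-94565096, plus strand: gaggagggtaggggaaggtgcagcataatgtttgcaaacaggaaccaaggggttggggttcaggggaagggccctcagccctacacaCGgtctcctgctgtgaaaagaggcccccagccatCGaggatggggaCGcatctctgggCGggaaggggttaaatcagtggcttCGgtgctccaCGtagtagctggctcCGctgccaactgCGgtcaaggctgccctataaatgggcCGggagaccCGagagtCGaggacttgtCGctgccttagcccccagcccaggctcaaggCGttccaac
Cilp promoter, chr9:65264930-65265229, plus strand: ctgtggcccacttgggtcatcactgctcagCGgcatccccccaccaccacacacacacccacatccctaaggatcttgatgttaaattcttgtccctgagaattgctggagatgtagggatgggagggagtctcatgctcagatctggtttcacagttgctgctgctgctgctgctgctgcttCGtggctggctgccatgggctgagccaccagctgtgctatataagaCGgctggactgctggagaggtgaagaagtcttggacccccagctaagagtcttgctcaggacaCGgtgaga
Hapln1 promoter, chr13:89540386-89540685, plus strand: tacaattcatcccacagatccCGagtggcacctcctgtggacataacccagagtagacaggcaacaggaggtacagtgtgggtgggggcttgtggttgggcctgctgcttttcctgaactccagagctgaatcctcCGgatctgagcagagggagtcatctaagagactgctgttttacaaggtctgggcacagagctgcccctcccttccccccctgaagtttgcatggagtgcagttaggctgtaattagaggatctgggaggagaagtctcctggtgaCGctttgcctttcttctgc

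The Acan window held 31 CG dinucleotides and was 74.0% G and C, above the CpG number of 89.4% of the 32851 windows, whose median was 7. Those of Matn3 and Chad held 15 and 13, the 6 windows of Sox6 between 2 and 13, and those of Matn1, Cilp, Sox5 and Hapln1 held 6, 4, 3 and 3. The letters TATAAA, searched on both strands, were found in the Chad window and in 2 of the 6 Sox6 windows, against 13.6% of all windows. ACAAAG and ACAATG, 2 of the sequences that SOX proteins bind, were present in 18.7% and 12.6% of all windows on either strand. Among the members, ACAAAG was found in 5 Sox6 windows and ACAATG in 2 Sox6 windows and the Sox5 window, and the matrix gene windows held neither. CpG number and reads were weakly related across all genes, with Spearman's rho from 0.145 (arthritis paw) to 0.265 (control paw), a description over genes that share a library.

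The tables hold quantile-normalised signal, from which read numbers were recovered. The sections held 5344438 reads in 943 spots (arthritis paw), 5981684 in 554 (control paw), 2036521 in 1200 (brain), and 749650 in 254, 548923 in 251 and 403483 in 248 spots (embryo H3K27me3, H3K27ac and H3K4me3). The members took 0.0456% of the reads of the arthritis paw, 0.0510% of the control paw's and 0.0530% of the brain's. For embryo H3K27me3, H3K27ac and H3K4me3 the shares were 0.0407%, 0.0448% and 0.0374%. A level is given as reads divided by the mean over the genes of the same section. The arthritis paw and brain tables list 11130 and 11345 genes and the other 4 list 18066 to 19378. The genes left out of the arthritis table had a median of 77 reads in the control paw, against 211 for those it lists, so levels in the shorter tables are set against better covered genes. The ratios below use only genes held by both sections. In bulk signal of this kind, fewer cells of a type and less mark per cell cannot be told apart.

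The median rank of the members among the genes of their section, from 0 for the lowest to 100 for the highest, was 58.4 in the arthritis paw and 72.9 in the control paw. It was 39.0 in the brain, and 72.4, 77.1 and 70.2 in embryo H3K27me3, H3K27ac and H3K4me3. The number of members above the middle gene was 3 of 5, 6 of 10, 3 of 7, 6 of 10, 6 of 10 and 8 of 9 in the same order of sections. Ranks of single members ran from 8.05 (Matn3, embryo H3K27ac) to 93.7 (Sox6, control paw). Within a section reads rose only weakly with gene span, with Spearman's rho from 0.145 (embryo H3K4me3) to 0.193 (control paw) over genes. Per kb of gene span in RefSeq, Sox9 ranked at 95.3 in the control paw and Sox5, a gene with a very long span, at 1.78. No source used here gives the window over which reads were counted, so the values below are set side by side within a gene.

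**Figure D1:**
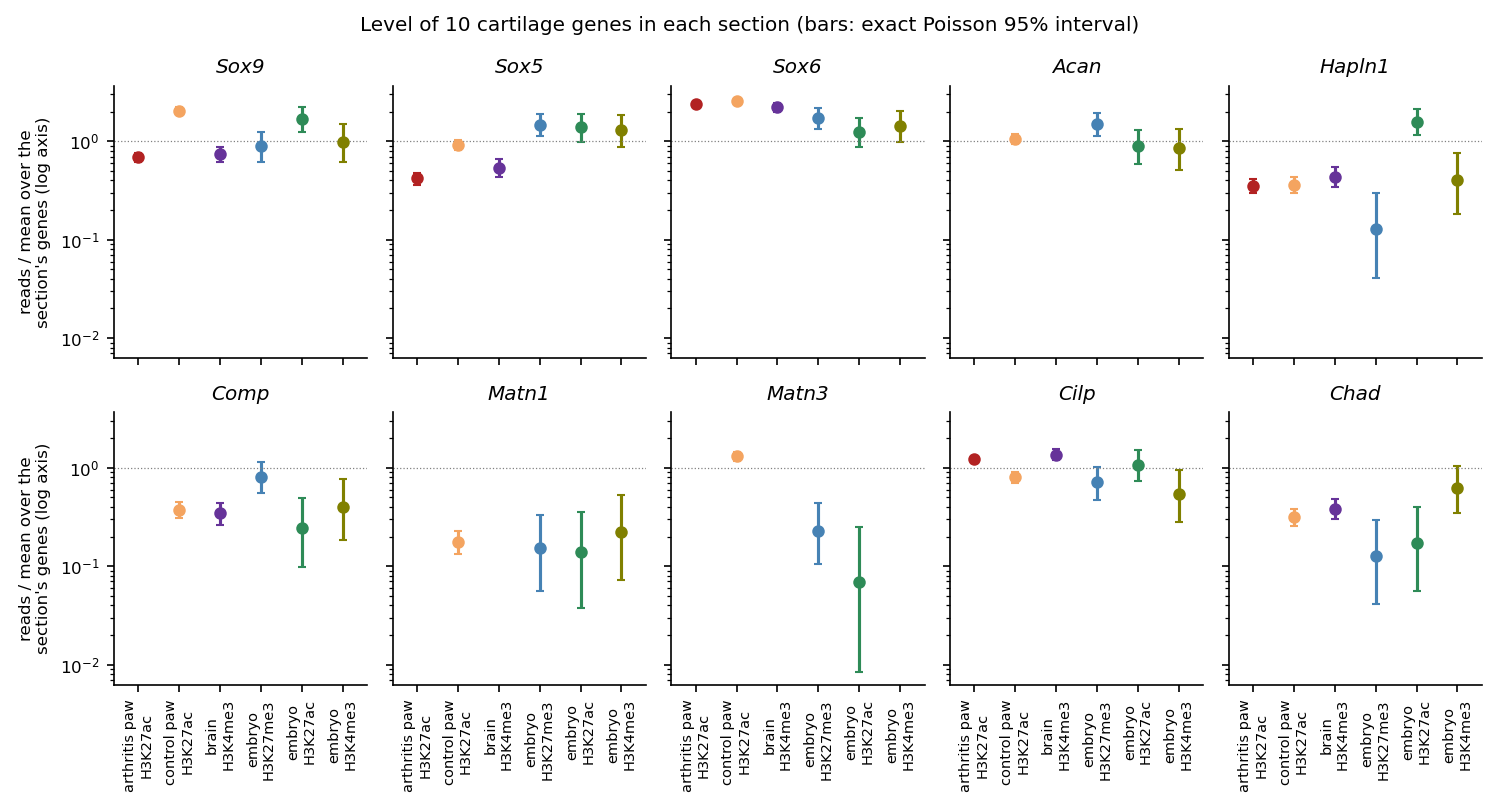
Level of each of the 10 cartilage genes (reads over the mean of the section's genes, log axis) in the 6 sections, with exact Poisson 95% intervals. Sox6 lies above 1 in all 6 sections, Hapln1 is above 1 in embryo H3K27ac alone, and a missing point marks a gene that the table does not list.

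Sox9 had 330 reads in the arthritis paw and 630 in the control paw, which is a level of 0.687 (0.615 to 0.766) and 2.04 (1.88 to 2.21). It had 132 reads in the brain, and 35, 49 and 22 reads in embryo H3K27me3, H3K27ac and H3K4me3. The embryo levels were 0.889, 1.69 and 0.985. The control paw and embryo H3K27ac were the highest for this gene, with overlapping intervals. The interval of embryo H3K27ac (1.25 to 2.24) also met that of embryo H3K4me3 (0.617 to 1.49). The arthritis paw and the brain, at 0.735 (0.615 to 0.872), have the 2 shorter tables, whose levels are set against better covered genes. Over the genes held by both paws the control paw's level was 1.56.

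Sox5, whose protein is a partner of SOX9, had 201 reads in the arthritis paw, 281 in the control paw and 97 in the brain, levels of 0.419, 0.910 and 0.540. In embryo H3K27me3, H3K27ac and H3K4me3 it had 58, 40 and 29 reads, at 1.47, 1.38 and 1.30. The 3 embryo intervals overlapped, the arthritis paw and the brain lay below all of them, and the control paw met those of H3K27ac and H3K4me3. Sox6 had 1150, 785 and 398 reads in the arthritis paw, the control paw and the brain, at levels of 2.39, 2.54 and 2.22, and 68, 36 and 32 reads in the embryo, at 1.73, 1.24 and 1.43. It was the steadiest of the 3 regulators, and its ranks ran from 82.8 to 93.7.

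Acan had 327 reads in the control paw, a level of 1.06 (0.948 to 1.18). In embryo H3K27me3, H3K27ac and H3K4me3 it had 59, 26 and 19 reads, at 1.50 (1.14 to 1.93), 0.897 (0.586 to 1.31) and 0.851 (0.512 to 1.33). The level for the Polycomb mark was the highest, with an interval above 1 that overlapped those of the other embryo marks. In the same order of sections Acan ranked at 79.4, 87.3, 74.8 and 78.6. The median gene of these sections lay well under the mean, at levels of 0.460, 0.356, 0.414 and 0.313. Hapln1 had 169 reads in the arthritis paw, 111 in the control paw and 78 in the brain, at levels of 0.352, 0.360 and 0.435. It had 5, 46 and 9 reads in embryo H3K27me3, H3K27ac and H3K4me3, at 0.127 (0.0412 to 0.296), 1.59 (1.16 to 2.12) and 0.403 (0.184 to 0.765). Embryo H3K27ac was the one section in which the link protein gene stood above the mean gene, and its interval met none of the other 5.

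Comp had 116 reads in the control paw and 62 in the brain, at levels of 0.376 and 0.345, and 32, 7 and 9 reads in embryo H3K27me3, H3K27ac and H3K4me3. Its embryo levels were 0.813 (0.556 to 1.15), 0.242 (0.0971 to 0.498) and 0.403 (0.184 to 0.765), so H3K27me3 lay above H3K27ac with intervals that did not meet. Matn1, a matrilin of growth plate and tracheal cartilage, was low wherever it was listed, with 54 reads in the control paw and 6, 4 and 5 in the embryo, at levels of 0.175, 0.152, 0.138 and 0.224. Matn3 had 403 reads in the control paw, a level of 1.31, and 9 and 2 reads in embryo H3K27me3 and H3K27ac, at 0.229 and 0.0690. Its reads in the control paw lay in array columns 1, 5, 9, 13, 17 and 21 at 3.23 times their share of all reads. Without those columns 235 reads and a level of 0.874 were left. The same factor was 1.49 for Acan, 1.46 for Hapln1 and 0.651 for Sox9 there.

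Cilp had 589 reads in the arthritis paw, 246 in the control paw and 244 in the brain, at levels of 1.23, 0.797 and 1.36, and 28, 31 and 12 reads in the embryo, at 0.711, 1.07 and 0.537. The brain, which has no cartilage, gave this matrix gene a level as high as the arthritis paw, with overlapping intervals (1.19 to 1.54 and 1.13 to 1.33). Chad had 97 reads in the control paw and 69 in the brain, at 0.314 and 0.384, and 5, 5 and 14 reads in embryo H3K27me3, H3K27ac and H3K4me3. Its embryo levels were 0.127, 0.173 and 0.627, highest for H3K4me3, and only the interval of H3K27me3 (0.0412 to 0.296) did not meet that of H3K4me3 (0.343 to 1.05).

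The paw comparison asks which of these genes differ in H3K27ac between an inflamed and a control joint. Sox9 was lower in the arthritis paw and Cilp higher, while Sox6 and Hapln1 lay close to the median of all genes. The 5 members held by both paws had a median log2 ratio of 0.27, against 0.11 over the 11130 genes held by both. None was 2-fold higher, where 11.6% of all genes were, and 1 of 5, Sox9, was 2-fold lower, where 7.88% of all genes were. With 5 genes, this count does not set them apart from all genes. Members that the arthritis paw does not list have no ratio, so these 5 do not stand for all 10. Of those without a ratio, Acan (327) and Matn3 (403) had more control paw reads than the median listed gene (211). Comp (116), Chad (97) and Matn1 (54) had fewer. Why they were not listed was not tested.

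Over the genes held by both paws, Sox9 lay at 0.687 in the arthritis paw and 1.56 in the control paw, a log2 ratio of -1.07 (95% counting interval -1.25 to -0.90). Of all genes, 7.30% had a lower ratio. Split by array column, the ratio was -0.79 over odd and -1.28 over even columns, so it passed 2-fold in the even columns and in all spots but not in the odd ones. Sox5 lay at 0.419 and 0.694, a log2 ratio of -0.61 (-0.84 to -0.39), with -0.62 over odd and -0.61 over even columns. Sox6 lay at 2.39 and 1.94, a log2 ratio of 0.29 (0.16 to 0.42), so SOX9's 2 partners did not go the same way.

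Hapln1 lay at 0.352 in the arthritis paw and 0.274 in the control paw, a log2 ratio of 0.27 (0.0046 to 0.54), an interval that holds the median of all genes. Cilp lay at 1.23 in the arthritis paw and 0.608 in the control paw, a log2 ratio of 0.91 (0.71 to 1.10), under 2-fold, and 86.8% of all genes had a lower ratio. Its ratio was 0.97 over odd and 0.87 over even columns. The largest difference of odd from even columns among the 5 was that of Sox9, 0.485, where the median gene differed by 0.177.

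**Figure D2:**
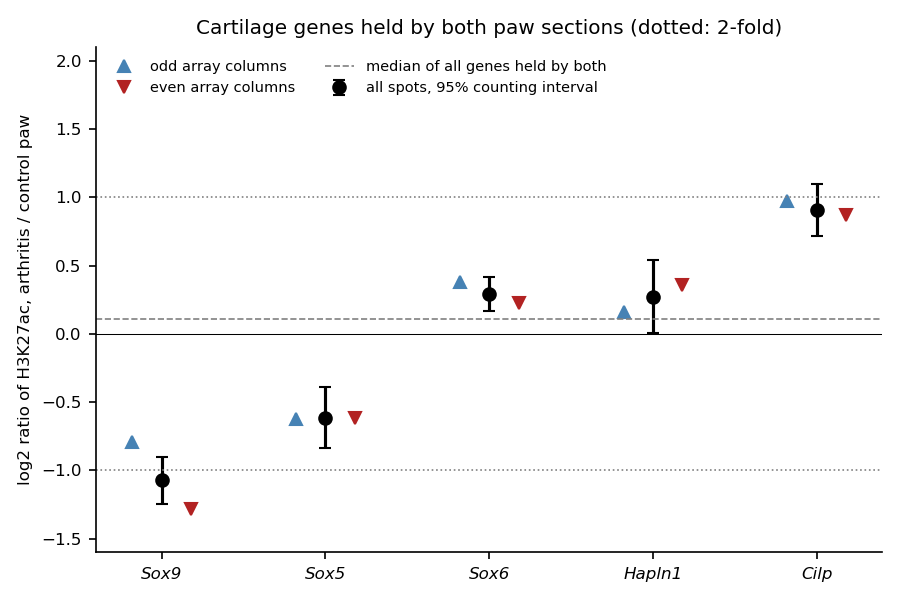
Log2 ratio of H3K27ac, arthritis over control paw, of the 5 members held by both (black, with 95% counting intervals), and the same over odd and even array columns. Sox9 at -1.07 passes the dotted 2-fold line over all spots and even columns, Cilp at 0.91 stays under it, and the dashed line is the median of all genes, 0.11.

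A further list of 35 symbols of cartilage development and matrix, which stand for 34 genes, had 27 held by both paws. Of these 3 were 2-fold higher and 2 were 2-fold lower, with a median of 0.13. Both counts are close to the 11.6% and 7.88% of all genes and say nothing particular of the list. The highest was Pax9, a transcription factor gene of the embryonic vertebrae, with 3809 reads in the arthritis paw and 333 in the control paw and a log2 ratio of 3.12. The lowest was Col11a2, which encodes a chain of the cartilage collagen type XI, with 120 and 392 reads and -1.61. Named after their values were seen, the others past 2-fold were Cytl1, which encodes a small secreted protein of cartilage (2.60, 654 against 57 reads), Wwp2, a ubiquitin ligase gene (1.75, 1584 against 368), and the homeobox gene Barx1 (-1.52, 406 against 1055). Col2a1, the gene of type II collagen and a known SOX9 target, had 204 and 197 reads and a ratio of -0.16 (-0.40 to 0.08). It too was singled out after its values were seen.

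Of 13 genes of hyaluronan and the lecticans, the proteoglycan family of ACAN, 9 were held by both paws, with a median of 0.00096. One member, the hyaluronan receptor gene Cd44, was 2-fold higher at 1.67 (664 against 148 reads), where 11.6% of all genes were. None was 2-fold lower, where 7.88% were, and the lowest was Hapln3, a relative of Hapln1, at -0.69 (321 against 462 reads). No test was made of either list.

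Markers of other tissues were set beside all genes held by both paws, whose median log2 ratio was 0.11 with quartiles at -0.28 and 0.51. The median was 0.85 for 5 epidermis markers, 0.41 for 6 skeletal muscle markers and 0.25 for 12 osteoblast markers. It was -0.30 for 9 synovial fibroblast and -0.52 for 8 neutrophil markers. The muscle and osteoblast medians lay between those quartiles, and those of epidermis, synovial fibroblasts and neutrophils outside. In epidermis, muscle and osteoblasts 2, 2 and 3 markers were 2-fold higher, where 11.6% of all genes were. Of the neutrophil markers 1 was 2-fold lower, where 7.88% were. Summed over the markers listed, the share of all reads of a paw's table was 0.0899% in the arthritis paw and 0.0361% in the control paw for epidermis (5 and 8 listed), 0.0681% and 0.0338% for muscle (6 and 9 listed), and 0.370% and 0.131% for osteoblasts (12 and 13 listed). Every gene listed had at least 10 reads in the arthritis paw and 9 in the control paw, so no listed marker could be at 0. The part of these tissues in the values of Sox9 and Cilp was not tested. Of 10 astrocyte and oligodendrocyte markers, the 7 listed in the brain had a median rank of 78.1 there. In the other sections the median was 47.6 to 65.1, over the 5 listed in the arthritis paw or the 10 listed elsewhere. Of 10 neuron markers, the 9 listed in the brain had a median rank of 58.8. In the other sections it was 56.8 to 76.1, over the 9 or 10 listed there. The neuron median was higher in the arthritis paw (76.1 over 9) and in the control paw (65.5 over 10) than in the brain, so it did not follow the labelled tissue. The markers listed and the marks also differ between sections, and these ranks do not check the labelled tissue.

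In the embryo, the comparison of marks asks which of these genes carried the Polycomb mark and which the active marks at a stage when limb and vertebral cartilage begins to form. Hapln1 carried far fewer H3K27me3 than H3K27ac reads, Comp carried more, and Chad had more H3K4me3 than either other mark. No other member passed 2-fold between marks with the pseudocount of 0.1. Matn3, on 9 H3K27me3 and 2 H3K27ac reads, did so in 5 of 9 alternatives. Only 2 to 68 reads per gene stood behind these values, and each comparison shares a section with another, so they are given side by side.

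For H3K27me3 over H3K27ac the 10 members had a median log2 ratio of 0.08, against -0.12 over 18653 genes. Comp was 2-fold higher, at 1.41 (0.45 to 2.32), as were 10.4% of all genes, and Hapln1 was 2-fold lower, at -2.89 (-3.66 to -1.98), as were 14.1%. Hapln1 was 2-fold lower in each alternative tried, with values from -3.55 to -1.19. Comp ran from 0.54 to 1.83 and was past 2-fold in 8 of 10 alternatives. Acan lay at 0.67 (0.04 to 1.32) and Sox9 at -0.86 (-1.47 to -0.26), both under 2-fold with intervals on 1 side of 0. Matn3 lay at 0.95 on 9 and 2 reads (-0.34 to 1.76), or 1.72 if no pseudocount was added, and the intervals of Sox5, Sox6, Matn1, Cilp and Chad also held 0.

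For H3K27me3 over H3K4me3 the 9 members had a median of 0.11, against 0.08 over 17837 genes. None was 2-fold higher, where 15.1% of all genes were, and 2 were 2-fold lower, where 10.4% were. These were Chad at -1.71 (-2.61 to -0.61) and Hapln1 at -1.18 (-2.16 to 0.0041), on 5 against 14 and 5 against 9 reads. Neither passed 2-fold with the deposited values (Chad -0.47, Hapln1 -0.42) or with a pseudocount of 1 (-0.53 and -0.32), and Hapln1 also missed it over even columns (-0.71) and with mean spot shares (-0.997). Acan at 0.69 and Comp at 0.80 were the highest, and both intervals held 0.

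For H3K27ac over H3K4me3 the median was 0.02, against 0.20 over 17762 genes. Hapln1 was 2-fold higher at 1.69 (0.79 to 2.61), where 17.8% of all genes were, and Chad 2-fold lower at -1.44 (-2.46 to -0.28), where 9.17% were. Cilp at 0.83 and Sox9 at 0.67 followed Hapln1, and the intervals of these and of the 5 remaining members held 0. With a pseudocount of 1 no member passed 2-fold (Hapln1 0.84, Chad -0.48), and over odd columns Hapln1 was at 0.98. With the deposited values 3 members were 2-fold higher and 1 was lower, Hapln1 being at 2.49 and Cilp at 1.71. Over odd columns Cilp was at 1.45. The deposited values gave Acan -1.92 here and -0.62 for H3K27me3 over H3K4me3, where the reads gave 0.02 and 0.69, and Chad -0.23, where the reads gave -1.44. All embryo ratios of members past 2-fold kept their sign in the 10 alternatives.

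**Figure D3:**
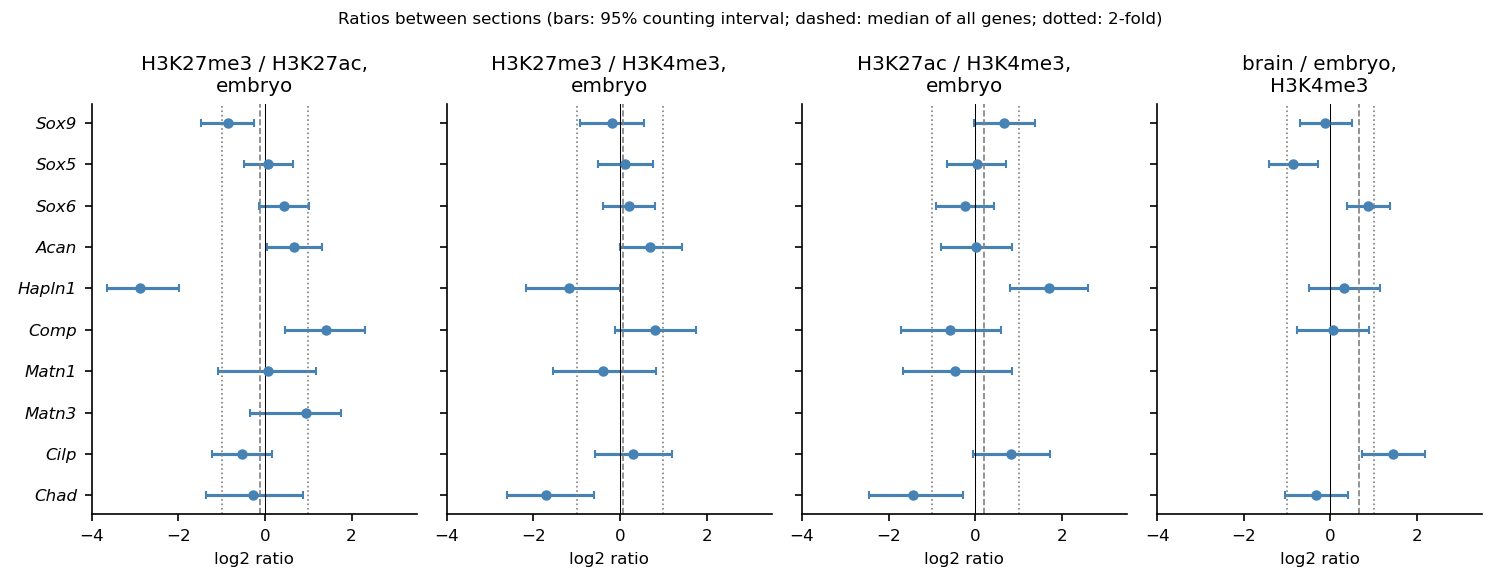
Log2 ratios of the cartilage genes between marks of the embryo and between brain and embryo for H3K4me3, with 95% counting intervals, the median of all genes (dashed) and 2-fold (dotted). Hapln1 lies at -2.89 for H3K27me3 over H3K27ac and at 1.69 for H3K27ac over H3K4me3, and Chad at -1.71 and -1.44 in the ratios over H3K4me3.

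The brain was set against the embryo for H3K4me3, as a tissue without cartilage. The 7 members held by both had a median log2 ratio of 0.05, against 0.66 over 11127 genes, and 2 of 7 lay above that median. Scaling by the median gene in place of the mean moved the median of all genes to 0.06, so members are best read relative to it. With mean scaling Cilp was 2-fold higher in the brain, at 1.43 (0.72 to 2.18), as were 31.4% of all genes, on 244 against 12 reads. None of the 7 was then 2-fold lower, where 5.72% of all genes were. With median scaling these calls turned over, since none was 2-fold higher, with Cilp at 0.82, and 2 were 2-fold lower, Sox5 at -1.61 and Chad at -1.04.

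Relative to the median of all genes, Sox5 lay at -1.52, Chad at -0.999, Sox9 at -0.78, Comp at -0.61 and Hapln1 at -0.35, and Sox6 and Cilp at 0.20 and 0.77. Before that subtraction Sox5 was at -0.86 (-1.41 to -0.28) and Sox6 at 0.87 (0.38 to 1.38). Cilp's value differed between spots, with 2.16 over odd and 0.93 over even columns. The deposited values placed Hapln1 at 1.51 in this comparison, where the reads placed it at 0.32 (-0.49 to 1.14).

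Within sections, the share of spots with a read of a member was set beside the share that spot depth alone would give. In the arthritis paw Sox9 had reads in 29.2% of spots, where the same number of reads placed by depth would reach 28.6%. In the control paw it had them in 58.7%, against 61.5%. Of the 51 pairs of a member and a section, 25 had at least 50 reads. In 21 of these 25 the observed share lay within 1 percentage point of that value, and the differences ran from -5.13 (Matn3, control paw, 42.6% against 47.7%) to 2.65 (Sox5, embryo H3K27me3, 22.4% against 19.8%). In pairs with fewer reads nearly every read falls in a spot of its own, so the observed share can hardly leave that value. The same holds for some of the 25. Comp in the brain had 62 reads in 62 spots and Matn1 in the control paw 54 reads in 52 spots. Closeness to the depth value is therefore partly fixed by the read numbers. No spot held more than 12 reads of a member in any section.

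**Figure D4:**
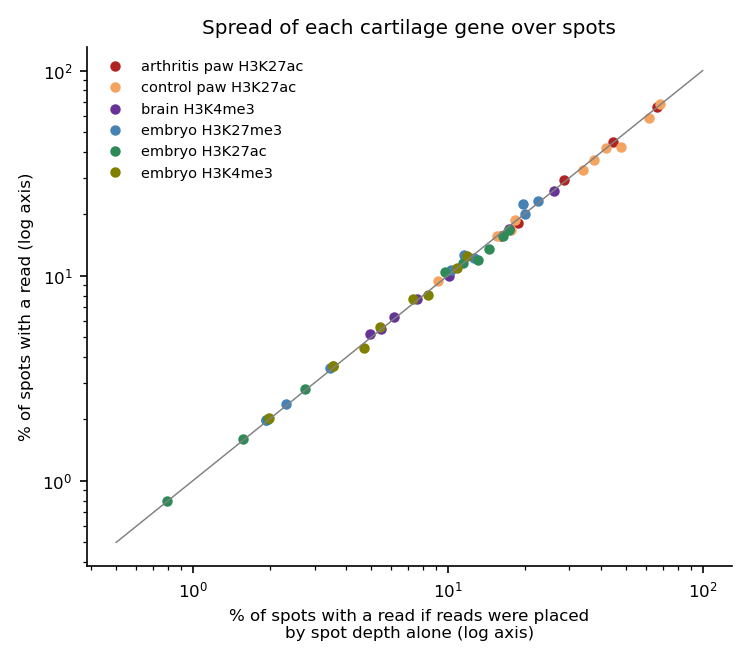
Share of spots with a read of each member (vertical) against the share that the same reads would reach if placed by spot depth alone (horizontal), both on log axes, for 51 pairs of gene and section. Points at the lower left rest on few reads and lie near the line of equality by construction, and the control paw's Matn3 lies lowest beneath it, at 42.6% against 47.7%.

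Moran's I, a measure of likeness between neighbouring spots in which 0 means none, lay under 0.1 in 50 of 51 pairs. The exception, Matn1 in embryo H3K4me3 at 0.164, rests on 5 reads. The median over all genes of a section was near 0 too, from -0.012 to 0.00050. A low value therefore does not show that likeness is absent. Cilp stood above 97.6% of genes in the brain (0.037) and above 3.10% in the arthritis paw (-0.041). Correlations between members were mostly near 0. Over spots, the Spearman correlation between 2 members' shares of the spot's reads had a median of -0.00075 over the 10 pairs of the arthritis paw and 0.020 over the 45 pairs of the control paw. It was 0.061 in the brain, and -0.0082, 0.00054 and 0.029 in embryo H3K27me3, H3K27ac and H3K4me3, and the highest of all, 0.261, was that of Matn1 and Cilp in embryo H3K27ac, with 4 reads of Matn1. All spots of a section share a library, and at these read numbers weak correlations are no finding.

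**Figure D5:**
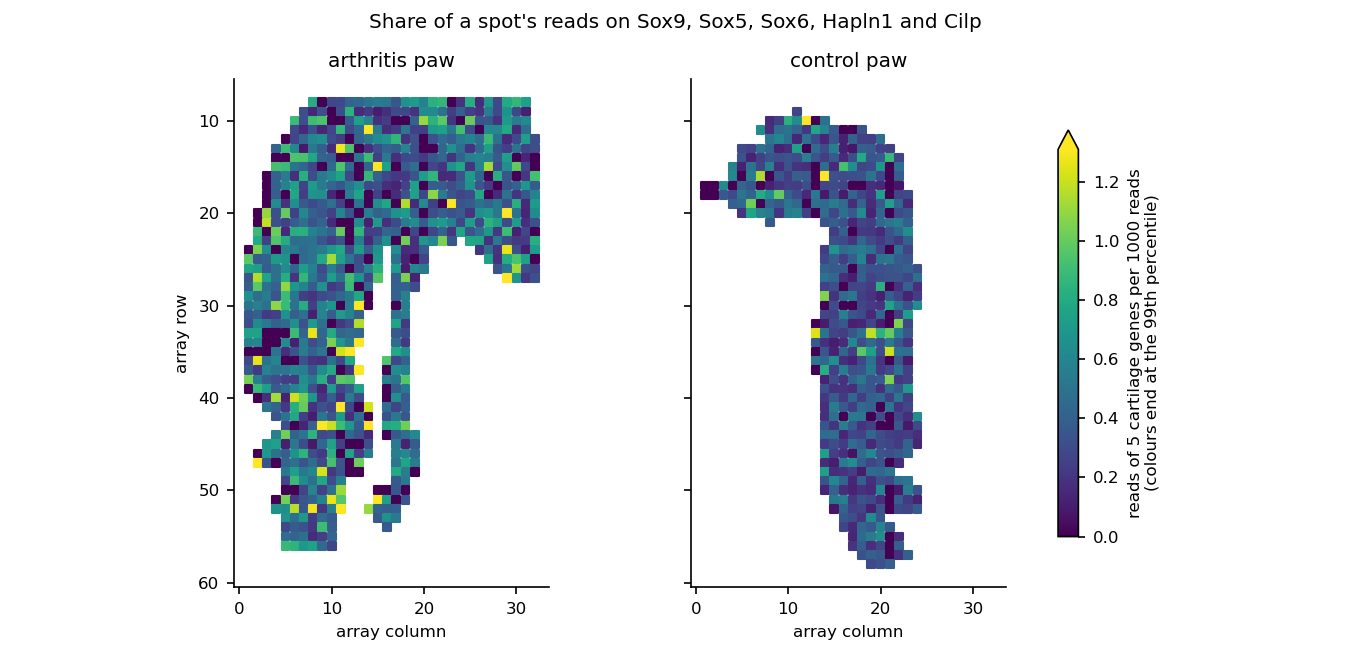
Reads of Sox9, Sox5, Sox6, Hapln1 and Cilp per 1000 reads of each spot, by array column and row, in the arthritis paw (943 spots) and the control paw (554 spots). Spots without such a read (darkest) number 108 in the arthritis paw and 52 in the control paw, and colours end at the 99th percentile of all spots. The control paw's table lists more genes, which lowers its shares, so colours are read within a paw.

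The summed reads of the 5 shared members were 2439 in the arthritis paw and 2053 in the control paw. Per 1000 reads on the genes held by both paws this was 0.456 in each. Per 1000 reads of all genes it was 0.456 in the arthritis paw and 0.343 in the control paw, whose table lists more genes. The single highest spot held 16 of them in the arthritis paw and 19 in the control paw. The array positions of 324 spots occur in both paws, and the totals of those spots correlated at 0.34 (Spearman).

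Neighbouring genes were examined because a wide counting window could give them the same reads. Among the 2 genes on each side of every member, equal numbers to within 5% were found for 6 pairs. In the arthritis paw these were Sox6 (1150 reads) and Plekha7 (1142), whose reads correlated at 0.15 over spots. The rest were embryo pairs at low numbers, Sox9 and Slc39a11 (35 and 36), Sox5 and C2cd5 (58 and 59) and Hapln1 and Cox7c (5 and 5) for H3K27me3, and Comp and Crtc1 (9 and 9) and Matn1 and Sdc3 (5 and 5) for H3K4me3. Their correlations over spots ran from -0.02 to 0.08, so equal sums did not come with shared spots.

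The genes whose levels over the 6 sections were most like those of Sox9, out of 9471 listed in all, were 1810046K07Rik, Cyp2u1 and Cntrl. Their root mean square differences in log2 level were 0.199, 0.236 and 0.239, against a median gene at 1.17. For Acan, over the 4 sections that list it and 17559 genes, they were Rsrc1, Osbpl6 and Avpr1a at 0.096, 0.110 and 0.112, against 1.48. No member or other listed cartilage gene was among them.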

How the data were processed

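Spatial chromatin profiles of 6 mouse sections were analysed. The deposited values are signal per gene and array spot, quantile-normalised by the authors per the file names. Bowtie2, featureCounts and MACS2 and the builds hg19 and mm9 are listed, per the submitters' processing notes, with neither role nor version given in the sources used here. Genes with the same count in a spot were ordered as the control paw lists them, so read numbers were recovered from the tied ranks. They were taken as exact up to the first count held by fewer than 5 genes, and beyond it they can be too low. The recovered reads came to 92.9% to 95.4% of the list's total, and no member's sum was a lower bound. The decoding was also run on simulated data whose ties were placed in the same gene order, so that run could not test the order itself. Median reads per spot were 1179 to 10114.5.

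Reads were divided by the mean over genes, a pseudocount of 0.1 was added, and log2 ratios were taken over genes held by both sections. A gene was called at a log2 ratio of at least 1 or at most -1. Ratio intervals are exact binomial (Clopper-Pearson, 95%) and level intervals exact Poisson. No test was made. The members and lists were chosen with earlier results of these data known. All members are named, and from other lists only the highest and lowest paw ratio unless stated. Alternatives were deposited values, pseudocounts of 1 and 0.01, a filter at a level of 0.25, median scaling, mean spot shares, shares of spots, odd or even columns, and leaving out 6 columns. Acan was compared over 4 sections in place of the planned 6. Python 3.11.15, numpy 2.4.6, pandas 2.3.3 and SciPy 1.17.1 were used.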

Additional observations from a re-analysis of the deposited data

How the results depend on the processing

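No paired analysis was possible because each group holds 1 section. The 5 list medians stayed between the medians of their members' lower and upper counting bounds in all 10 alternatives. In the paws the list median ran from 0.08 to 0.32. For brain over embryo it ran from -0.59 with median scaling to 0.40 over even columns. Of 395 values of single members under an alternative, 373 lay within the counting interval, 22 moved out of it, and 0 changed sign from a value past 2-fold. Of those 22, 8 came with the deposited values, 6 with a pseudocount of 1, 3 each with median scaling and with the share of spots, and 1 each with odd and even columns. Sox9 in the paws was past 2-fold in 6 of 10 alternatives and ran from -1.28 to -0.60, under 2-fold with the deposited values (-0.89), a pseudocount of 1 (-0.60), the share of spots (-0.75) and odd columns (-0.79). Cilp in the paws ran from 0.47 to 1.06 and passed 2-fold in 2. Cilp in brain over embryo passed it in 7 of 10. The cause of these shifts was not tested. Depth limits the embryo, where the median gene held 7 to 14 reads.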

Other observations

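Within each section, a gene's place in the gene order was correlated with its deposited value averaged over that section's spots. Spearman's rho over all genes ran from 0.33 to 0.58 among the 6 sections, and from -0.11 to -0.06 with the gene's reads. Genes are not independent replicates, so these are descriptions. Chad stands 4.88% of the way down the order and Cilp 6.63%, and Hapln1 77.5%. In the control paw Chad had a level of 0.314 by reads and 0.0921 by deposited values, Cilp 0.797 and 0.451, and Hapln1 0.360 and 0.552. Matn3, at 69.1% of the order, had 1.31 by reads and 2.51 by deposited values, and Acan, at 60.2%, had 1.06 and 1.38. Sox9, at 64.8% of the order, had 2.04 by reads and 1.68 by deposited values, and Comp, at 65.6%, had 0.376 and 0.254, so the place alone does not give the direction for a single gene.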
